A study of Mus musculus with 6 samples.

Results

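GIMAP proteins (GTPases of immunity-associated proteins) are a family of small GTP-binding proteins made mainly by lymphocytes. All 8 genes named for them here, Gimap1, Gimap3, Gimap4, Gimap5, Gimap6, Gimap7, Gimap8 and Gimap9, were found by name among the 23505 gene rows of a raw count table, each with 1 row. RNA sequencing measured them in liver CD4+ T cells of wild-type mice that had received concanavalin A (ConA), a lectin from jack beans that drives T cells and inflames the liver. The ConA group (3 libraries) was gavaged with phosphate-buffered saline, and the ConA+SIM group (3 libraries) with simvastatin, an inhibitor of cholesterol synthesis, at 30 mg/kg. Gavage was given daily over 5 days, 1 h before ConA and 24 h after it, and every mouse of both groups received ConA, so neither group shows resting cells. The labels give no age, sex or strain, and do not say whether a library came from 1 mouse or from several, so the p-values below measure only the spread between these samples.

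GIMAP proteins share a GTP-binding domain and mostly sit on intracellular membranes, several of them through a membrane anchor near the carboxy terminus. They are best known for keeping mature T cells and B cells alive: lymphocytes that lack Gimap1, Gimap5 or Gimap6 become scarce. In the mouse the genes lie side by side as a cluster, and their transcripts are also found in NK cells, B cells and endothelial cells.

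The cluster spans 124 kb of chromosome 6 (GRCm38), from Gimap8 (48647186 to 48660875) through Gimap9 (48676121 to 48679116), Gimap4 (48684578 to 48692062), Gimap6 (48701583 to 48708244), Gimap7 (48718621 to 48724636), Gimap1 (48739047 to 48743795) and Gimap5 (48746197 to 48754200) to Gimap3 (48764464 to 48770851). All are protein-coding; 6 are read from the plus strand, and Gimap6 and Gimap3 are the 2 read from the minus strand. The genes are related copies, and the handling of reads matching several places was not stated in the labels. For each member, 1 transcript of GENCODE release M21 was therefore split into all stretches of 50 nt, and each stretch was looked for in the transcripts of every other gene. Gimap4, Gimap8 and Gimap9 shared 0 stretches, Gimap6 0.192% of its stretches and Gimap7 2.62%. Gimap3 shared 9.83% and Gimap5 15.1%, mostly with each other (190 stretches), and Gimap1 shared 202 of its 1444 stretches, mostly with a read-through transcript, Gm28053, and an antisense transcript, Gimap1os. Levels of Gimap1, Gimap3 and Gimap5 are therefore less certain than those of the other members, and reads from the 106 of 1444 Gimap1 stretches shared with Gimap1os cannot be assigned to 1 of the 2 transcripts by sequence alone.

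The Gimap3 and Gimap5 transcripts held 7 identical stretches of 53 to 140 nt, together 533 nt, all inside the longest open reading frame of both. A read lying wholly inside such a stretch cannot be assigned to either gene by sequence alone. The stretch around the P-loop, which grips the phosphates of GTP, is shown for that reason. It is 57 nt long, and the capitals mark the 8 codons of the P-loop pattern (glycine, any 4 residues, glycine, lysine, then serine or threonine), which were the same in both genes.
Gimap3 and Gimap5: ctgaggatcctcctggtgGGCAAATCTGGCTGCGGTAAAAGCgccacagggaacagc

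The sequences before the start sites of Gimap6 and Gimap3 are shown next, because within a library the counts of these genes moved furthest apart between the groups, as described below; that of Gimap5, the near copy of Gimap3, is added for comparison. Each is the 250 bases before the RefSeq start site (GRCm38.p6), chr6:48708245-48708494 on the minus strand for Gimap6, chr6:48770852-48771101 on the minus strand for Gimap3 and chr6:48745947-48746196 on the plus strand for Gimap5. Capitals mark the core letters GGAAGT, bound by ETS factors, and GGAAAA, bound by NFAT factors, on either strand (ACTTCC and TTTTCC).
Gimap6: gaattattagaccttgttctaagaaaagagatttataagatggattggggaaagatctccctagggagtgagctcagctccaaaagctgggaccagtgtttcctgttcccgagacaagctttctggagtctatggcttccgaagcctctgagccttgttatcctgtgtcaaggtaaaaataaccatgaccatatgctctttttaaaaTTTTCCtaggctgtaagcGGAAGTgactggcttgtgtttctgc
Gimap3: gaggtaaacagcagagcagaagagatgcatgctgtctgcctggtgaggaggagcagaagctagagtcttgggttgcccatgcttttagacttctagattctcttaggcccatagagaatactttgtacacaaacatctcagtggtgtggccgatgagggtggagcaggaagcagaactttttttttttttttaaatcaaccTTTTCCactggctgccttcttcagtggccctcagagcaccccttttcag
Gimap5: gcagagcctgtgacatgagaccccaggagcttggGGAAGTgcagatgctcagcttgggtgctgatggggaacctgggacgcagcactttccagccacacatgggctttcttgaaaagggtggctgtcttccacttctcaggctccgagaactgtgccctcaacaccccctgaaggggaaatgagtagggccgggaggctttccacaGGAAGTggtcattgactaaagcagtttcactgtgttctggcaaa

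RefSeq start sites were found for all 8 members and gave 9 windows, since Gimap8 has 2. GGAAGT or ACTTCC was in 2 of the 9 windows (Gimap5 and Gimap6) and in 19.7% of 32817 windows of the same length from all genes. GGAAAA or TTTTCC was in 3 (Gimap1, Gimap3 and Gimap6) against 20.4% of all windows. The RUNX core TGTGGT or ACCACA was in 3 (Gimap1, Gimap4 and Gimap7) against 14.0%, the FOXO core GTAAACA or TGTTTAC in 1 (Gimap3) against 3.16%, and TATAAA or TTTATA in 1 (Gimap6) against 12.4%. In Gimap6 the ETS letters ended 20 bases and the NFAT letters 38 bases before the start site; in Gimap3 the NFAT letters ended 44 bases before it. A match is a description of letters and was not tied to binding. The member windows had a median of 3 CG pairs and all windows one of 6.

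The libraries held 17549429 to 25031862 counts, and 10509 genes had enough counts to be tested, with all 8 members among them. The members drew 81960 to 109980 counts in a library, 0.429% to 0.446% of all counts in the ConA libraries and 0.512% to 0.534% in the ConA+SIM libraries. Levels below are in CPM, a gene's counts as a part of the library total after TMM scaling. The spread between libraries was wide across the genome (common biological coefficient of variation 1.12) and narrower for the members, whose own values ran from 0.207 in Gimap6 to 0.439 in Gimap5. The members are more abundant than most tested genes, and genes of like abundance were not set beside them. The sort kept CD3+, CD4+ cells without CD8 or NK1.1, and Cd4 stood between 441 and 766 CPM in all 6 libraries, against 0 to 15.9 CPM for Cd8a and 4.64 to 54.1 CPM for Cd8b1, which encode the chains of CD8. Cd8b1 ran from 4.64 to 33.1 CPM in ConA and from 21.8 to 54.1 CPM in ConA+SIM. Klrb1c, which encodes NK1.1, stood at 6.69 to 20.0 CPM in ConA and 39.0 to 43.5 CPM in ConA+SIM.

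Per kilobase of exon, a scale on which genes can be ranked, Gimap4 was the most abundant member and Gimap5 the least in both groups. In ConA, Gimap4 stood at 614 ± 31.0 CPM per kb (SD, n = 3), Gimap6 at 373 ± 20.2, Gimap3 at 359.5 ± 31.8, Gimap7 at 171 ± 24.3, Gimap9 at 163 ± 32.9, Gimap8 at 88.4 ± 18.2, Gimap1 at 67.3 ± 36.5 and Gimap5 at 25.6 ± 4.82. Within that order the libraries of Gimap6 and Gimap3, of Gimap7 and Gimap9, and of Gimap8 and Gimap1 overlapped, whereas the other neighbours in the order did not. In ConA+SIM the order of the means was the same, from 757 ± 193 CPM per kb for Gimap4 to 39.0 ± 9.28 for Gimap5. There, Gimap6 (672 ± 85.6 CPM per kb) overlapped with Gimap4 and no longer with Gimap3 (329 ± 56.3). Over all libraries Gimap4 ranked 98th and Gimap6 119th of 10036 tested genes with a known length, Gimap3 175th and Gimap5 2220th.

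**Figure D1:**
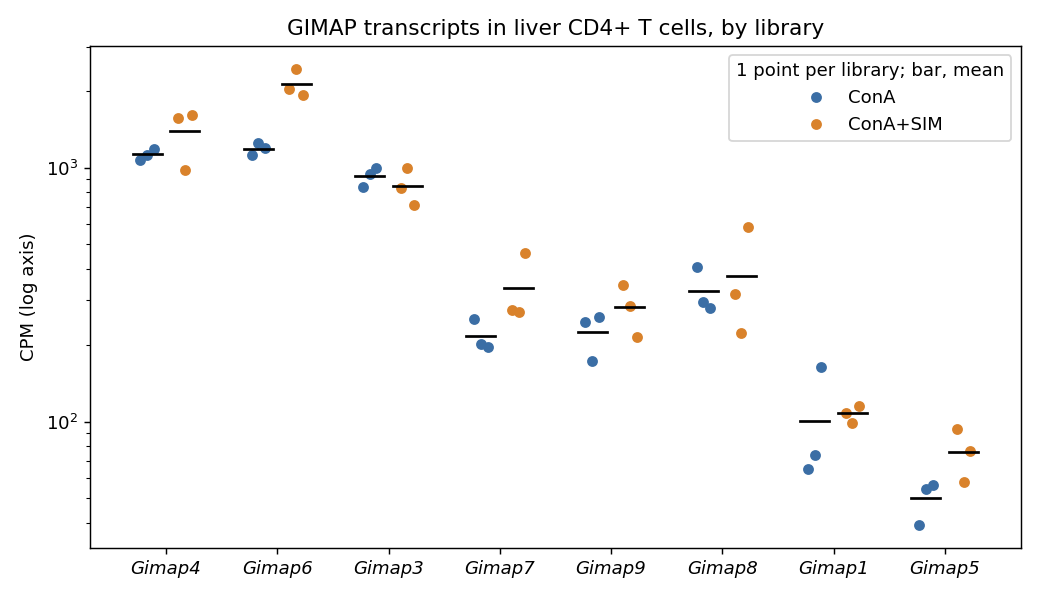
CPM of each GIMAP member (log axis) in the 3 ConA and the 3 ConA+SIM libraries, with 1 point per library and a bar at the group mean, ordered by level per kilobase in ConA. The 3 ConA+SIM points of Gimap6, at 1934 to 2453 CPM, lie above its ConA points, at 1125 to 1254 CPM, while the points of Gimap3 overlap.

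Setting ConA+SIM against ConA addresses the role of simvastatin in CD4+ T cells during ConA liver injury, which the submitters state as their aim. No GIMAP member passed the test over all genes (edgeR quasi-likelihood test, adjusted p under 0.05), against 0.542% of tested genes called, all of them higher. At an unadjusted p under 0.05 there were 2 members, Gimap6 and Gimap7, where 8.85% of tested genes reached that level. The count of members called was also 0 with RLE scaling (0.571% of genes called), with a filter of 5 CPM in 3 libraries (0.603%) and with copy rows summed (0.561%). Values were higher in ConA+SIM for 7 members and lower for 1, Gimap3, with a median log2 fold change of 0.31; over all tested genes the median was -0.041, and 48.0% had higher values. The libraries of the groups did not overlap for 3 members, Gimap5, Gimap6 and Gimap7, all higher in ConA+SIM, whereas 17.8% of tested genes had no overlap in either direction and 9.18% none with higher values in ConA+SIM. In bulk samples like these, fewer cells of a type and less RNA per cell cannot be told apart.

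Gimap6, a partner of the autophagy protein GABARAPL2 that is needed for T cell survival, came nearest to the threshold. It stood at 1125, 1254 and 1190.4 CPM in ConA replicates 1 to 3 and at 2045, 2453 and 1934 CPM in ConA+SIM replicates 1 to 3. Every ConA+SIM library was higher than every ConA library. The group means were 1189.9 ± 64.5 and 2144 ± 273 CPM (SD, n = 3 each), a 1.8-fold difference. The log2 fold change was 0.85 ± 0.16 (SE, edgeR, adjusted p = 0.0623), with the 63rd smallest p of all 10509 genes. The gene did pass with DESeq2 (adjusted p = 6.35e-06; 5.28% of genes called), limma-voom (adjusted p = 0.00448; 1.09%), limma-voom with sample quality weights (adjusted p = 0.0105; 1.08%) and with edgeR without a filter on low counts (adjusted p = 0.0464; 0.529%). Over all 16 other settings its adjusted p ran up to 0.69 and its log2 fold change from 0.74 to 0.92, and leaving out any 1 library left it short of the threshold. The lowest fold change, 0.74 (edgeR, adjusted p = 0.18), came without ConA+SIM replicate 2, the library with its highest value. In that library 18.4% of tested genes had no counts, and the part of this in the value of Gimap6 was not tested.

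Gimap7, whose protein pairs with other GIMAP proteins and speeds up their GTP cleavage, stood at 252, 202 and 197 CPM in ConA and at 276, 269 and 460.5 CPM in ConA+SIM. All ConA+SIM values were higher, but ConA+SIM replicate 3 stood well above the other 2. The log2 fold change was 0.63 ± 0.27 (SE, edgeR, adjusted p = 0.552). It was 0.33 without that library and 0.26 once each library's trend with transcript length was removed.

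Gimap5, a lysosomal membrane protein whose loss makes mice and rats lose T cells, had the lowest level of the family. Its values were 39.2, 54.1 and 56.5 CPM in ConA and 93.8, 57.6 and 76.9 CPM in ConA+SIM. The groups did not overlap, although ConA+SIM replicate 2 lay only just above the highest ConA library. The log2 fold change was 0.61 ± 0.41 (SE, edgeR, adjusted p = 0.856), and it stayed above 0 in all 16 other settings, between 0.43 and 0.78.

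Gimap3, the close relative of Gimap5 that is a pseudogene in humans, was the member with lower values in ConA+SIM. It stood at 836, 947 and 996 CPM in ConA and at 829, 1000.2 and 712 CPM in ConA+SIM. The groups overlapped, and ConA+SIM replicate 2 held the highest value of all. The log2 fold change was -0.13 ± 0.18 (SE, edgeR, adjusted p = 0.999), and it was 0.06 once each library's trends with transcript length and GC content were removed.

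Gimap4, which hastens the death of T cells, was even across the ConA libraries, at 1071, 1127 and 1185 CPM. In ConA+SIM it was uneven, at 1575, 981 and 1614 CPM, with replicate 2 below all ConA libraries and the other 2 above them. The log2 fold change was 0.30 ± 0.21 (SE, edgeR, adjusted p = 0.87), 0.50 without ConA+SIM replicate 2 and -0.20 after correction for length and GC content. In that replicate 18.4% of tested genes had no counts, more than the 2.76% to 9.98% of the remaining libraries, and the part of this in the value of Gimap4 was not tested.

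The remaining members overlapped between the groups. Gimap1, which mature T and B cells need to survive, stood at 64.9, 73.7 and 163.5 CPM in ConA and at 108, 99.1 and 116 CPM in ConA+SIM. Its ConA replicate 3 lay above every other library; the log2 fold change was 0.10 ± 0.40 (SE) with all libraries, 0.66 without that one, and below 0 in 3 of the 16 other settings. Gimap8, a large member with several GTP-binding domains, ran from 281 to 405 CPM in ConA and from 224 to 584 CPM in ConA+SIM. Its log2 fold change was 0.20 ± 0.35 (SE) and turned to -0.27 without ConA+SIM replicate 3, which held the highest value. Gimap9 ran from 174 to 257 CPM in ConA and from 215 to 346 CPM in ConA+SIM (log2 fold change 0.32 ± 0.27, SE), and turned to -0.31 after correction for length and GC content.

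**Figure D2:**
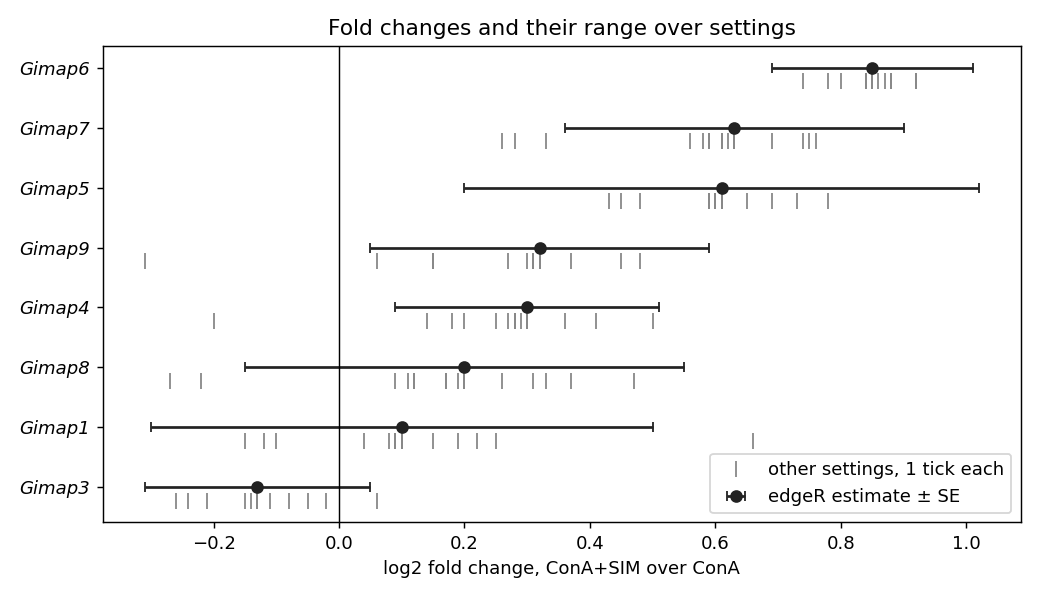
Log2 fold change of each GIMAP member, ConA+SIM over ConA, as the edgeR estimate with its SE (point and bar) and as the estimate in each of 16 other settings (grey ticks). Gimap6, Gimap7 and Gimap5 stay to the right of 0 in every setting, with Gimap6 between 0.74 and 0.92; the ticks of the other 5 members fall on both sides of 0.

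Counted together after TMM scaling, the family stood at 5591, 5369 and 5712.5 CPM in ConA+SIM against 4041, 4127 and 4326 CPM in ConA. Its share of the unscaled counts differed less, with means of 0.523% in ConA+SIM and 0.438% in ConA. The TMM factors ran from 1.02 to 1.088 in ConA and from 0.919 to 0.980 in ConA+SIM. The scaling itself thus raised ConA+SIM values relative to ConA values for every gene. Gimap6 carried much of the difference in summed CPM. Without it the other 7 members summed to 2915.5, 2873 and 3136 CPM in ConA and to 3547, 2916 and 3779 CPM in ConA+SIM, and the groups overlapped. Gimap6 supplied 27.5% to 30.4% of the family's counts in ConA and 33.9% to 45.7% in ConA+SIM, and Gimap3 20.7% to 23.0% and 12.5% to 18.6%.

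A ratio of 2 members within a library does not depend on how libraries are scaled, so all 28 pairs were compared in raw counts; this was chosen after the values had been seen. The Gimap6 to Gimap3 ratio was 1.35, 1.32 and 1.19 in ConA and 2.47, 2.45 and 2.72 in ConA+SIM. Its group means were 1.29 ± 0.0816 and 2.55 ± 0.149 (SD, n = 3 each), a 1.98-fold difference, the largest among the pairs and given here as a description without a test. The groups also did not overlap for the ratios of Gimap5 to Gimap3 (0.0468 to 0.0572 in ConA and 0.0576 to 0.113 in ConA+SIM), Gimap6 to Gimap4 (1.0 to 1.11 and 1.2 to 2.5) and Gimap7 to Gimap8 (0.624 to 0.7 and 0.789 to 1.2). These made 4 of 28 pairs, a smaller share than the 25.6% found over all pairs of 3558 genes with counts in every library and a mean level no lower than that of the least abundant member. Lack of overlap is thus common among pairs of genes in these libraries. A ratio shows that members differed unequally, not which of them did.

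**Figure D3:**
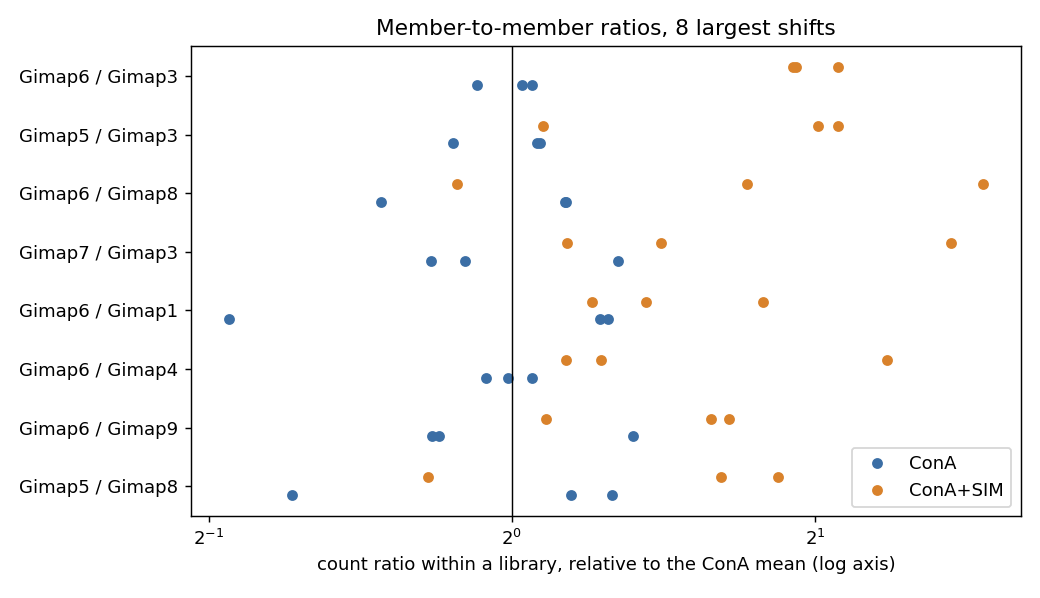
Count ratio of 2 GIMAP members within each library, divided by the mean ratio of the ConA libraries (log axis), for the 8 pairs with the largest shift; each point is 1 library. The Gimap6 to Gimap3 ratio has its 3 ConA+SIM points close together and far from its ConA points, whereas in most other pairs the points of the groups overlap.

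The genes around the cluster were measured in the same libraries. Of 20 protein-coding neighbours starting within 500 kb of the outermost member starts, 8 had enough counts to be tested, 0 passed, and 2 (Malsu1 and Tra2a) had no overlap between the groups, near the 17.8% of all tested genes without overlap. In ConA+SIM 5 of them were at higher and 3 at lower values. Their median log2 fold change was 0.42, against 0.31 for the members. The SE of these estimates ran from 0.23 (Tra2a) to 3.11 (Tmem176b). The most abundant neighbour was Tra2a, a splicing regulator (49243921 to 49264248), at 203, 261.5 and 208 CPM in ConA and 278, 355 and 274 CPM in ConA+SIM. Its groups did not overlap, and its log2 fold change of 0.43 ± 0.23 (SE, edgeR, adjusted p = 0.699) fell between those of Gimap9 and Gimap5. The nearest genes beyond Gimap3, Tmem176b and Tmem176a, had no counts in 2 and 3 of the 6 libraries and reached at most 24.3 and 62.0 CPM.

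**Figure D4:**
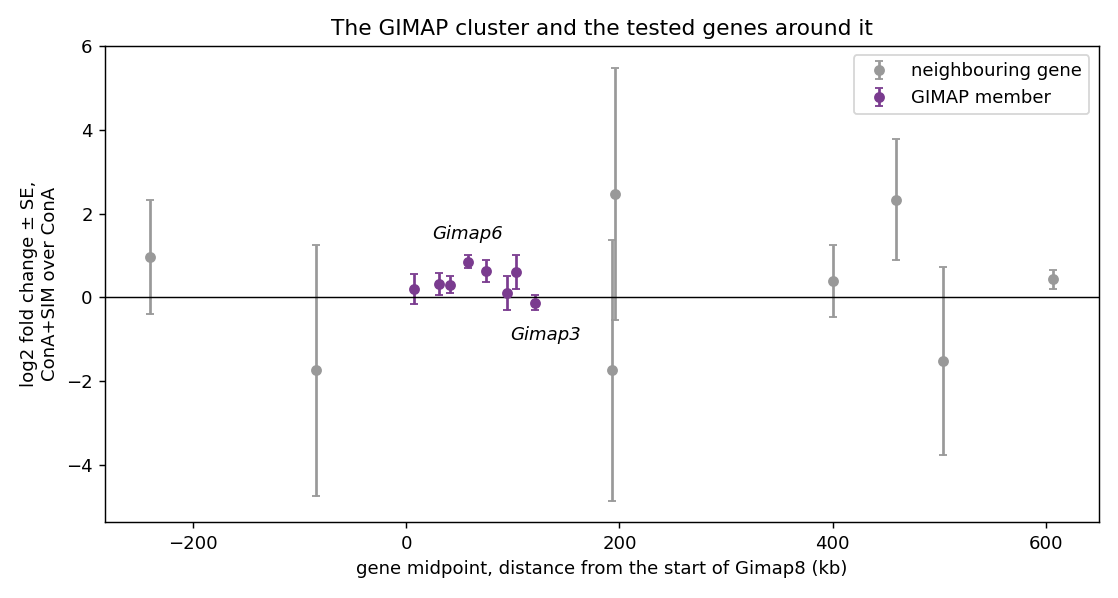
Log2 fold change with its SE, ConA+SIM over ConA, against the distance of a gene's midpoint from the start of Gimap8 (kb), for the 8 members (purple) and the 8 tested neighbours (grey). The members lie between -0.13 and 0.85 with short bars, and most neighbours have bars that span 0 widely.

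Genes that work with GIMAP proteins gave no call. The list of partners and survival genes, made of BCL2 family members, autophagy adaptors of the GABARAP and LC3 kind and the kinase GSK3 with its target beta-catenin, had 14 of 15 genes tested, of which 8 had higher and 6 lower values, with a median log2 fold change of 0.08. Map1lc3b, an LC3 gene, stood at 155, 123 and 105 CPM in ConA and at 208.5, 208 and 155 CPM in ConA+SIM (log2 fold change 0.58 ± 0.28, SE, edgeR, adjusted p = 0.626). Mcl1, a survival factor of the BCL2 family, stood at 938, 758 and 878 CPM and at 1158, 1076.5 and 985 CPM, without overlap (0.32 ± 0.17, SE, edgeR, adjusted p = 0.672). Ctnnb1, which encodes beta-catenin, had a log2 fold change of -0.47 ± 0.27 and Bcl2l1, which encodes the survival factor BCL-XL, one of 0.71 ± 0.65 (SE). Gabarapl2, which encodes the partner of Gimap6, had a log2 fold change of 0.45 ± 0.52 (SE) and Bcl2 one of 0.25 ± 0.45. The row named Gabarap is listed at 0 in every library, so the level of Gabarap is uncertain. A copy row of that gene, not used in the list, ran from 4.43 to 7.91 CPM in ConA. In ConA+SIM that copy row ran from 10.8 to 46.2 CPM, without overlap.

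Resting T cells hold much GIMAP RNA, and the quiescence list was given for that reason. Of its 16 genes, all tested, 0 passed, 9 had higher and 7 lower values, with a median of 0.03. The smallest p belonged to Tcf7, a factor of naive and memory T cells, at 816, 1102 and 1441 CPM in ConA and 907, 569.8 and 585 CPM in ConA+SIM. Its log2 fold change was -0.70 ± 0.26 (SE, edgeR, adjusted p = 0.435), and ConA+SIM replicate 1 lay within the range of the ConA libraries. Klf2, a factor of quiescence, had one of -0.35 ± 0.22 and Il7r, the receptor of the survival cytokine interleukin-7, one of 0.18 ± 0.25 (SE). That of Bach2, a repressor that keeps T cells quiescent, was -0.59 ± 0.47 (SE).

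T cells and other cells that make GIMAP transcripts were followed through their markers. The 9 T cell markers with a row summed to 2802, 2489.5 and 3925 CPM in ConA and 3914.5, 4050 and 3795.5 CPM in ConA+SIM; 5 had higher and 4 lower values, and ConA replicate 3 lay within the ConA+SIM range. Of these 9 markers, 3 genes for chains of the T cell receptor complex were higher in every ConA+SIM library than in every ConA library. None passed the test, and 9.18% of all tested genes had no overlap with higher values in ConA+SIM. Cd247 ran from 234 to 331 CPM in ConA and from 548 to 736 CPM in ConA+SIM (log2 fold change 1.14 ± 0.22, SE, edgeR, adjusted p = 0.0743). Cd3d ran from 312 to 453 and from 553 to 702 CPM (0.77 ± 0.22, SE), and Cd3g from 433 to 645 and from 786 to 993 CPM (0.64 ± 0.21, SE). Cd3e, for a chain of the same complex, and Cd4 had lower values (log2 fold changes -0.34 ± 0.40 and -0.29 ± 0.22, SE). So did Cd2 and Cd5 (-0.51 ± 1.96 and -0.18 ± 0.26, SE), and the groups overlapped for all 4 in the rows used. A copy row of Cd2, not used in the list, ran from 21.1 to 26.3 CPM in ConA. In ConA+SIM that copy row ran from 9.46 to 17.2 CPM, without overlap, so the level of Cd2 is uncertain.

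Of 10 NK cell markers 7 were tested, 6 of them with higher values and 1, Klre1, with lower (log2 fold change -0.53 ± 1.06, SE). The sum of the list ran from 259 to 497 CPM in ConA and from 426 to 754 CPM in ConA+SIM, with overlap. Klrd1, which encodes the CD94 receptor of NK cells and some T cells, stood at 15.3, 68.6 and 18.5 CPM in ConA and at 178, 172.5 and 139 CPM in ConA+SIM, without overlap (log2 fold change 2.26 ± 0.58, SE, edgeR, adjusted p = 0.225). The rows of Ncr1 and Klra8 are listed at 0 in every library. Of the 3 markers the sort selected against, Klrb1c and Cd8b1 had higher and Cd8a lower values (log2 fold changes 1.51 ± 0.77, 1.10 ± 0.89 and -0.11 ± 3.09, SE). Klrb1c is also 1 of the NK cell markers above.

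Sinusoidal endothelial markers had higher values in 1 and lower values in 11 of 12 genes, among them Stab1, a scavenger receptor (log2 fold change -1.96 ± 0.68, SE). ConA replicate 2 stood apart in this list, with a sum of 2302 CPM against 293 and 769 CPM in the other ConA libraries and 383 to 870 CPM in ConA+SIM. The mean sum was 1122 CPM in ConA and 624 CPM in ConA+SIM, and 531 CPM in ConA without that library, so the direction turned. The same library held 1469 CPM of 7 B cell markers, against 127 and 269 CPM in the other ConA libraries and 565 to 1016 CPM in ConA+SIM, and the ConA mean went from 622 to 198 CPM without it. Without that library the log2 fold change of Gimap6 was 0.87 (edgeR, adjusted p = 0.225), and of the members Gimap1 alone turned direction.

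Myeloid markers had higher values in 4 and lower values in 9 of 13 tested genes and summed to 1431 to 2959 CPM in ConA and 1178 to 2564 CPM in ConA+SIM. S100a8, a calcium-binding protein of neutrophils and monocytes, ran from 92.6 to 121 CPM in ConA and from 207 to 384 CPM in ConA+SIM. It had no overlap (log2 fold change 1.41 ± 0.30, SE, edgeR, adjusted p = 0.112). S100a9 and Ly6c2 were also higher without overlap (1.20 ± 0.29 and 0.99 ± 0.26, SE). Cd68, C1qa and Itgam, among the 9 with lower values, had no overlap either (-2.18 ± 1.40, -1.30 ± 0.66 and -1.16 ± 0.53, SE). Of all tested genes, 17.8% had no overlap in either direction. No marker in these lists passed the test, and their part in the values of the members was not tested.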

How the data were processed

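RNA of sorted liver CD4+ T cells was sequenced in 6 libraries. The aligner HISAT2 (2.1.0) and the build GRCm38 are named in the submitters' processing notes. No label names the counting tool, annotation, strand setting or treatment of reads matching several places. The authors deposited raw counts per gene, not normalized; 0 columns were left unused. Genes were kept with filterByExpr, scaled with TMM and tested on all 10509 genes with the quasi-likelihood F test of edgeR 4.0.16 (robust settings, R 4.3.3), ConA+SIM over ConA, no covariates, Benjamini-Hochberg adjusted p under 0.05. Exon lengths came from GENCODE release M21 (GRCm38), gene coordinates and start sites from RefSeq (GRCm38.p6). Alternatives were RLE scaling, other filters, DESeq2 1.42.0, limma-voom (limma 3.58.1) with and without quality weights, a replicate block, leave-one-out fits, offsets against transcript length, summed copy rows and, added after seeing the data, offsets against length and GC content. The procedure was tested on simulated data. All members were named whatever their p. The rule also allowed neighbours within 500 kb (those with values to show are named), up to 4 genes of each list with the smallest p, and genes most like the members' mean; 2 genes under this rule are not reported here, and some other list genes were chosen after their values were seen. The members and lists were chosen with earlier results of these data known. Libraries of a group differed far beyond sampling noise (chi-square 138 to 287 times its degrees of freedom). A gene at 0 could hold up to 3 counts, 0.118 to 0.175 CPM, which covers counting error only.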

Additional observations from a re-analysis of the deposited data

How the results depend on the processing

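The number of GIMAP members called went from 0 to 1, Gimap6, with DESeq2, limma-voom, limma-voom with sample quality weights and no filter on low counts (1 each), and stayed 0 in the other 12 settings. Calls over all genes numbered 57, against 555 with DESeq2, 115 with limma-voom, 114 with quality weights, 0 with transcript length offsets, 0 with length and GC offsets and 0 to 3 when 1 library was left out. With the replicate block there were 0 calls and Gimap6 had an adjusted p of 0.307; same-numbered libraries deviated together by r of 0.0111, 0.00878 and 0.0328 and only 1 of 3 ConA libraries correlated best with its own number, so the block was not taken as a pairing. The members' median log2 fold change stayed between 0.16 and 0.52. Directions turned for Gimap1 without ConA replicate 1 (-0.15) or 2 (-0.10) and with length offsets (-0.12), for Gimap8 without ConA+SIM replicate 3 (-0.27), and with length and GC offsets for Gimap3 (0.06), Gimap4 (-0.20), Gimap8 (-0.22) and Gimap9 (-0.31); the cause was not tested. Gimap1 reached 0.66 without ConA replicate 3 and Gimap8 0.47 without ConA+SIM replicate 2. Without ConA+SIM replicate 3 the median over all genes was -0.11. The members had at least 907 counts in each library, and whether Gimap6 passed varied with the method used on the same libraries.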

Other observations

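Among the tested genes outside the family, those whose log2 CPM followed the mean log2 CPM of the 8 members most closely over the 6 libraries included Arpc3, a subunit of the actin-branching Arp2/3 complex (Pearson's r = 0.989), Snrpe, a core protein of spliceosomal particles (0.988), Atpif1, the inhibitor of the mitochondrial ATP synthase (0.984), and Slc16a1, a lactate and pyruvate transporter (0.982). Arpc3 stood at 391 ± 66.9 CPM in ConA and 668 ± 131.5 CPM in ConA+SIM (SD, n = 3 each) and Atpif1 at 39.7 ± 8.65 and 109 ± 34.2 CPM. Those that ran most opposite to it were Cat, the peroxide-degrading catalase (-0.998), Abi3 (-0.995) and Cenpt, a kinetochore gene (-0.99). These genes were picked from all tested genes for their likeness, and all points share 6 libraries in 2 groups, so no test is given. The members themselves did not share 1 profile. Pearson's r between members ran from -0.935 (Gimap3 and Gimap8) to 0.82 (Gimap4 and Gimap5), so likeness to the mean is not likeness to each member.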
